A study of Mus musculus with 2 samples.

Results

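The matrix metalloprotease (MMP), ADAMTS and TIMP genes are described here in the embryonic mouse kidney. The genes were taken by name, as all protein-coding genes of GENCODE release M21 whose symbol starts with Mmp, Adamts or Timp followed by a digit, which leaves out the ADAMTS-like genes. This gave 45 of 43346 mouse genes in the gene tables, made up of 22 Mmp genes, 19 Adamts genes and 4 Timp genes. Mmp1a is annotated as a polymorphic pseudogene, was not a member, and had 0 counts in both libraries. No measured value entered the choice.

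Total RNA was sequenced from kidneys of healthy B6NCrl mouse embryos of both sexes at 16.5 days of development, with no treatment or mutation named in the labels. There were 2 libraries in 1 group, called biological replicates 1 and 2 in the labels, each from pooled embryos (41 embryos in replicate 2). Each library was made from 10 ng of RNA over 200 nt with external spike-in RNAs added. With 1 group of 2 libraries no test between groups was possible, so values are given for each library and errors are the SD of both (n = 2).

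The MMP and ADAMTS enzymes are zinc-dependent proteases that cut the matrix around cells. MMPs are made as inactive proenzymes and are either secreted or held at the cell surface, and they cleave collagens, gelatin, laminins and growth factor precursors. ADAMTS enzymes are secreted, carry thrombospondin repeats that bind matrix, and cleave proteoglycans such as versican, procollagen propeptides, or proteins of fibrillin microfibrils. TIMPs are small secreted proteins that plug the catalytic cleft in a tight, noncovalent complex, and in the developing kidney the balance of such proteases and inhibitors is studied for its part in branching of the ureteric bud and in basement membrane turnover.

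The coding bases that define each family are shown for the highest members, because they mark the catalytic site of a protease and the reactive end of an inhibitor. They were read from GENCODE M21 transcripts (GRCm38) and are written 5′ to 3′ on the coding strand. In the proteases the capitals mark the conserved codons of the zinc-binding signature of this enzyme superfamily, histidine, glutamate, histidine, then glycine or asparagine, then histidine.
Mmp14: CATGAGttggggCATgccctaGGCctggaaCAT
Mmp2: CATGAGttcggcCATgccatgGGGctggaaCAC
Mmp23: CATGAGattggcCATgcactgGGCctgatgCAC
Adamts1: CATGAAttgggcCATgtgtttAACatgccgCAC
Adamts10: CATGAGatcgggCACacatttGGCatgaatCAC
Adamts16: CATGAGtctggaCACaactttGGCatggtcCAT
The Mmp14 stretch lies at chr14:54437627-54437659 on the plus strand in exon 5 of 10, and that of Mmp2 at chr8:92839279-92839311 on the plus strand in exon 8 of 13. That of Mmp23 lies at chr4:155651528-155651560 on the minus strand in exon 5 of 8. In all 3 Adamts genes an exon junction splits the stretch, with one part in each of 2 neighbouring exons. In Adamts1 (minus strand) these are exon 3 of 9 at chr16:85799536-85799545 and exon 4 at chr16:85799191-85799213. In Adamts10 (plus strand) they are exon 9 of 25 at chr17:33538157-33538173 and exon 10 at chr17:33538264-33538279, and in Adamts16 (minus strand) exon 8 of 23 at chr13:70791796-70791812 and exon 9 at chr13:70787149-70787164. Mmp14 and Mmp2 shared 27 of 33 bases, while Mmp14 and Adamts1 shared 20.

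The inhibitors start their mature chain with a cysteine that reaches the zinc of the protease. Capitals in the following stretches mark the codon of that cysteine and of the cysteine after the next residue.
Timp3: TGCacaTGCtctcccagccatccccag
Timp2: TGCagcTGCtccccggtgcacccgcaa
Timp1: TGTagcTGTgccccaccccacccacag
Timp4: TGCagcTGTgcgcctgcgcacccccag
These lie at chr10:86300923-86300949 for Timp3 (plus strand, exon 1 of 5), chr11:118354986-118355012 for Timp2 (minus strand, exon 1 of 5), chrX:20871111-20871137 for Timp1 (plus strand, exon 2 of 6) and chr6:115251665-115251691 for Timp4 (minus strand, exon 1 of 5). Timp1 and Timp4 were most alike with 21 of 27 bases, and Timp3 and Timp1 least alike with 16.

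A search of the translated coding sequences found the zinc signature (H-E-X-X-H-X-X-G-X-X-H, or N in place of G, with X any residue) in all 22 Mmp genes and in 18 of 19 Adamts genes, Adamts8 holding neither form. The N form was added after the G form had been seen to miss several Adamts genes. It was found in Adamts1, Adamts4, Adamts9, Adamts15 and Adamts20, all of which are proteoglycan-cleaving enzymes. The same class also holds Adamts5, which had the G form, and Adamts8, which had neither. The other 13 Adamts genes with the signature, Adamts5 among them, had the G form. Of 21951 protein-coding genes with a coding sequence, 73 (0.333%) held the zinc signature, 40 of them members, and the others included ADAM and astacin proteases. The inhibitor start (C-X-C-X-P-X-H-P-Q) was found in 4 genes (0.0182%), the 4 Timp genes. The proenzyme switch, in which a cysteine of the propeptide holds the zinc until activation, was read in the same way in both leading proteases, with its cysteine codon in capitals.
Mmp14: cctcgcTGTggtgttccggat
Mmp2: ccaagaTGTggcaacccagat
The first lies at chr14:54436151-54436171 in exon 3 and the second at chr8:92830765-92830785 in exon 2. The search for this switch found no match in Mmp23, an enzyme known to lack it.

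A gene was called detected at 1 TPM or more in both libraries, where TPM is the level scaled to transcript length and to the same total in each library. Of the 45 members 29 were detected (64.4%), against 62.2% of all protein-coding genes. By family these were 9 of 22 Mmp genes (40.9%), 17 of 19 Adamts genes (89.5%) and 3 of 4 Timp genes. At 50 TPM or more in both libraries stood 8 members (17.8%, against 15.7% of protein-coding genes), and these were Mmp14, Mmp2, Adamts1, Timp3, Timp2, Mmp23, Mmp11 and Adamts10. Together these 8 held 82.9 ± 0.37% of the summed TPM of all members (SD, n = 2). In bulk tissue, fewer cells of a type and less RNA per cell cannot be told apart.

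**Figure D1:**
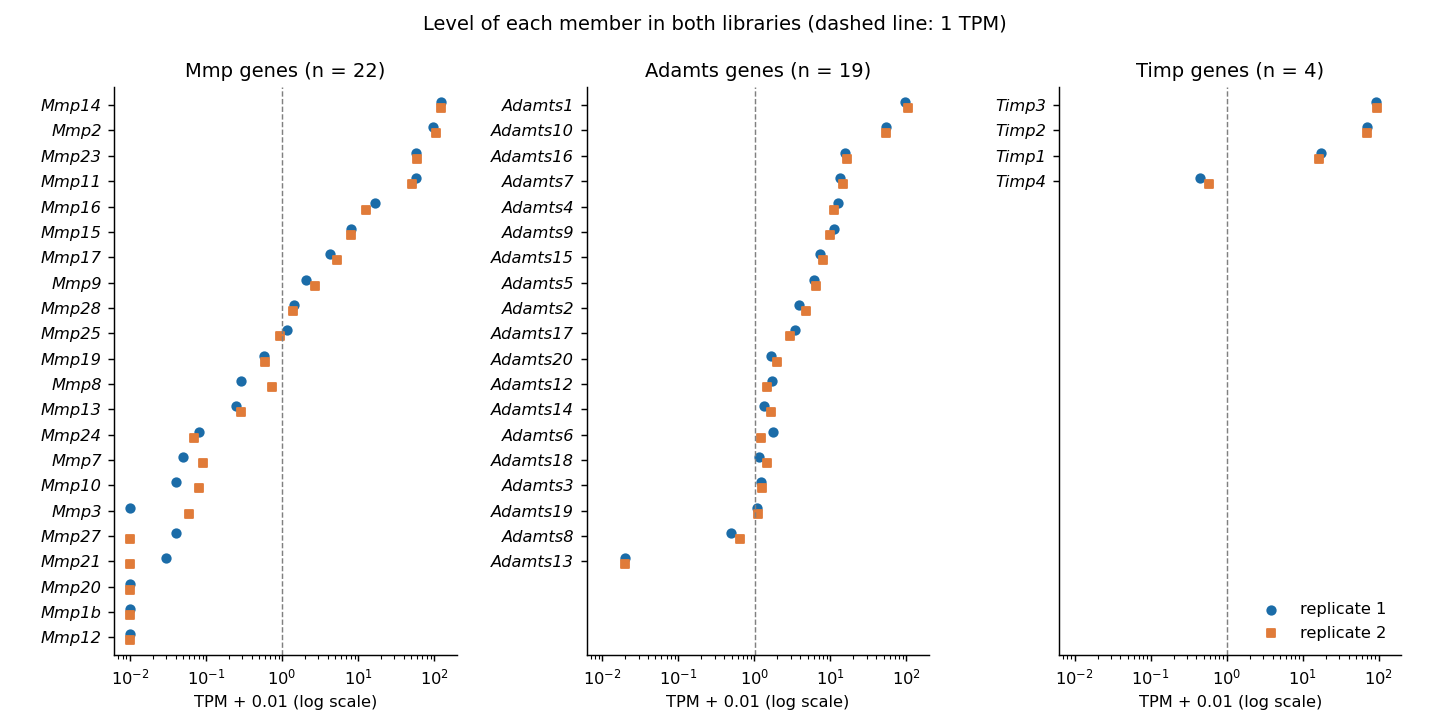
TPM + 0.01 of every member on a log axis, with Mmp, Adamts and Timp genes in separate panels and circles and squares for replicates 1 and 2. The Mmp genes spread from 0 to over 100 TPM, while 17 of 19 Adamts genes lie at or above the dashed line at 1 TPM.

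Among the membrane-bound MMPs, Mmp14 (MT1-MMP), which cleaves fibrillar collagen and activates the proenzyme of MMP2, was the highest of all 45 members. Its level was 122 TPM in replicate 1 and 124 TPM in replicate 2, from 7024 and 7703 counts. Mmp16, another membrane-type enzyme, had 16.5 and 12.7 TPM, and Mmp15 had 8.06 and 8.11 TPM. Mmp17, which is tied to the membrane by a lipid anchor, had 4.2 and 5.23 TPM. Mmp25, also lipid-anchored, stood at 1.16 and 0.92 TPM and so missed the limit in replicate 2, just outside the detected set. Mmp24 was near the floor with 0.07 and 0.06 TPM. The class summed to 152 and 151 TPM, of which Mmp14 made up most in both libraries.

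The gelatinases differed widely from each other. Mmp2 (gelatinase A), which cleaves gelatin and type IV collagen, had 97.9 TPM in replicate 1 and 105 TPM in replicate 2. Mmp9 (gelatinase B), known from neutrophils, macrophages and osteoclasts, had 2.07 and 2.67 TPM. Mmp2 was thus 47.3 and 39.2 times as high in TPM as Mmp9 within the same library, far more than the spread between libraries.

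Other MMPs carried a further large share. Mmp23, an enzyme released from the membrane by its own processing, had 57.6 and 60.2 TPM, and Mmp11 (stromelysin-3), which furin activates inside the cell, had 57.3 and 51.7 TPM. The lowest Mmp23 value lay just above the highest Mmp11 value, so these 2 genes were barely separated. Mmp28 (epilysin) was the lowest detected Mmp gene, with 1.44 and 1.39 TPM from 56 counts in each library. Mmp19 was at 0.57 and 0.59 TPM, under the limit. Mmp14, Mmp2, Mmp23 and Mmp11 together made up 90.9 ± 0.39% of the summed Mmp TPM (SD, n = 2). Neighbours in the order of the 9 detected Mmp genes did not overlap in TPM between libraries in any of 8 pairs.

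The interstitial collagenases, stromelysins 1 and 2, and matrilysin were all under the limit. Mmp8, the collagenase of neutrophils, had 0.28 and 0.73 TPM from 15 and 43 counts, and Mmp13 (collagenase 3) had 0.24 and 0.28 TPM from 14 and 18 counts. Mmp7, Mmp10, Mmp3, Mmp27 and Mmp21 had at most 3 counts in a library and 0 to 0.08 TPM. No counts fell on Mmp1b, on Mmp12 (macrophage elastase) or on Mmp20 (enamelysin of teeth). For these 3 genes a count of 0 allows up to 0.0968, 0.0711 and 0.0411 TPM in replicate 1 and 0.0891, 0.0655 and 0.0379 TPM in replicate 2, taking 3 counts as the floor per library, which covers counting error only. For Mmp12 the deposited upper bounds of TPM were higher, at 0.856 and 0.776, so its limit is less certain, while those of Mmp1b (0.094 and 0.0875) and Mmp20 (0.0399 and 0.0368) lay near the floors.

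Most of the undetected Mmp genes sit side by side. Members no more than 500 kb from the next were grouped, and the largest group held 9 Mmp genes at chr9:7272514-7699585 (GRCm38), a span of 427 kb. In order these were Mmp13, Mmp12, Mmp1b, Mmp3, Mmp10, Mmp8, Mmp27, Mmp20 and Mmp7. None of the 9 was detected, and together they drew 32 counts in replicate 1 and 68 in replicate 2. Of the 13 Mmp genes elsewhere, 9 were detected. Adamts genes formed pairs instead: Adamts1 and Adamts5 (chr16:85793827-85901828) were both detected, at levels that differed 15.4- and 16.4-fold in TPM, and Adamts15 was detected while its neighbour Adamts8 (together chr9:30899155-30963838) was not.

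**Figure D2:**
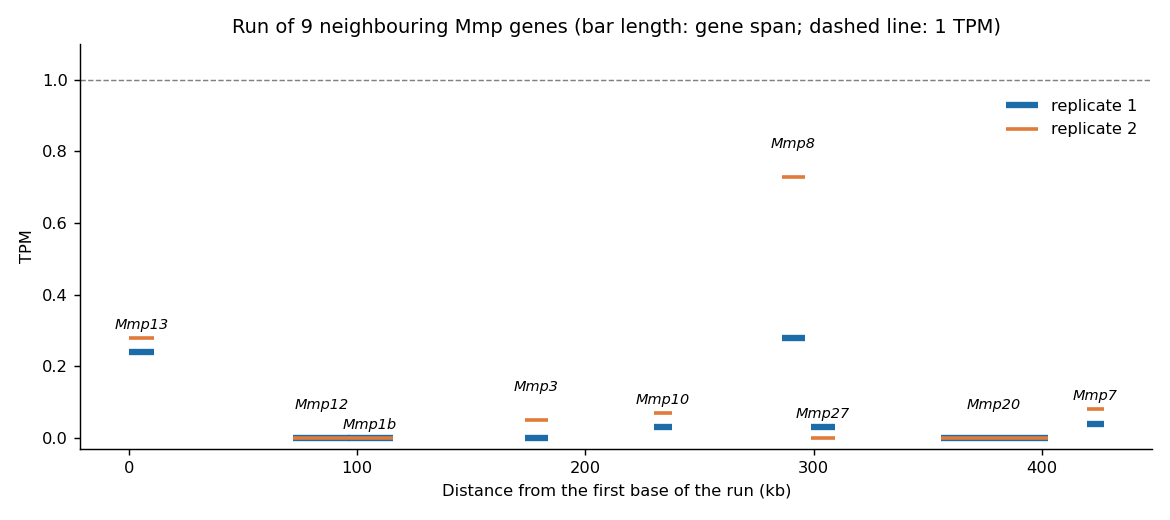
TPM of the 9 neighbouring Mmp genes against distance in kb from the first base of the run, with bar length giving each gene's span and colour the library. All bars lie under the dashed line at 1 TPM, and the highest is Mmp8 in replicate 2 at 0.73 TPM.

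Within the ADAMTS family the proteoglycan-cleaving enzymes were led by Adamts1, which cleaves versican and aggrecan and whose loss in mice causes kidney and ureter defects. Adamts1 had 94.9 TPM in replicate 1 and 105 TPM in replicate 2. The other members of this class were lower in both libraries. Adamts4 had 12.5 and 11.2 TPM and Adamts9 had 11.2 and 9.83 TPM. Adamts15 stood at 7.37 and 8.07 TPM and Adamts5, the main aggrecanase of mouse cartilage, at 6.16 and 6.41 TPM. Adamts20, known from the belted coat colour mutation in mice, had 1.63 and 1.98 TPM, and Adamts8 had 0.48 and 0.64 TPM, under the limit. The class summed to 134 and 143 TPM, so Adamts1 alone carried most of it.

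The ADAMTS enzymes outside the named substrate classes were led by Adamts10, which is linked to fibrillin microfibrils, with 54.6 and 53.3 TPM. Adamts16 followed with 15.5 and 16.4 TPM. Adamts17 had 3.46 and 2.90 TPM, Adamts6 had 1.75 and 1.22 TPM, Adamts18 had 1.15 and 1.47 TPM and Adamts19 had 1.06 and 1.09 TPM. All 6 genes of this group were detected, the last of them close to the limit. Adamts10 and Adamts1 together made up 64.6 ± 0.64% of the summed Adamts TPM (SD, n = 2).

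Of the enzymes that trim procollagens at their amino end, Adamts2 had 3.81 and 4.80 TPM, Adamts14 had 1.32 and 1.66 TPM, and Adamts3, which also processes the lymphatic growth factor VEGF-C, had 1.20 and 1.24 TPM. Adamts7 had 13.5 and 14.7 TPM and Adamts12 had 1.68 and 1.44 TPM, a pair known to cleave cartilage oligomeric matrix protein. Adamts13, which cuts von Willebrand factor and is made mainly in the liver, had 1 count in each library (0.01 TPM). Among the 17 detected Adamts genes, 5 of 16 neighbouring pairs in the order of levels overlapped between libraries, and all 5 fell in the run from Adamts20 to Adamts3.

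The inhibitors were led by Timp3, the TIMP that binds to matrix and also blocks ADAMTS enzymes and ADAM17. Timp3 had 93.1 TPM in replicate 1 and 95.9 TPM in replicate 2. Timp2, which inhibits MMPs and also bridges MMP14 and the proenzyme of MMP2, had 69.3 and 70.9 TPM. Timp1, a weak inhibitor of membrane-type MMPs, had 17.3 and 16.2 TPM. Timp4 was under the limit with 0.43 and 0.58 TPM from 13 and 19 counts. Timp3 and Timp2 together made up 90.5 ± 0.49% of the summed Timp TPM (SD, n = 2). The order Timp3, Timp2, Timp1, Timp4 was the same in both libraries with no overlap, and Timp3 exceeded Timp2 by 1.34- and 1.35-fold in TPM.

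Proteases and inhibitors were then compared by TPM. The 22 Mmp genes summed to 370 TPM in replicate 1 and 373 TPM in replicate 2, the 19 Adamts genes to 233 and 243 TPM, and the 4 Timp genes to 180 and 184 TPM. The Timp genes thus held 22.97 ± 0.035% of the summed TPM of all members, the Mmp genes 46.9 ± 0.42% and the Adamts genes 30.1 ± 0.45% (SD, n = 2). Summed protease TPM exceeded summed Timp TPM 3.35-fold in replicate 1 and 3.36-fold in replicate 2. For Mmp genes alone that ratio was 2.05 and 2.03, and for Adamts genes 1.29 and 1.32. These ratios differed between the libraries by less than the families differed from each other. They compare RNA levels only, and say nothing of protein or activity.

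**Figure D3:**
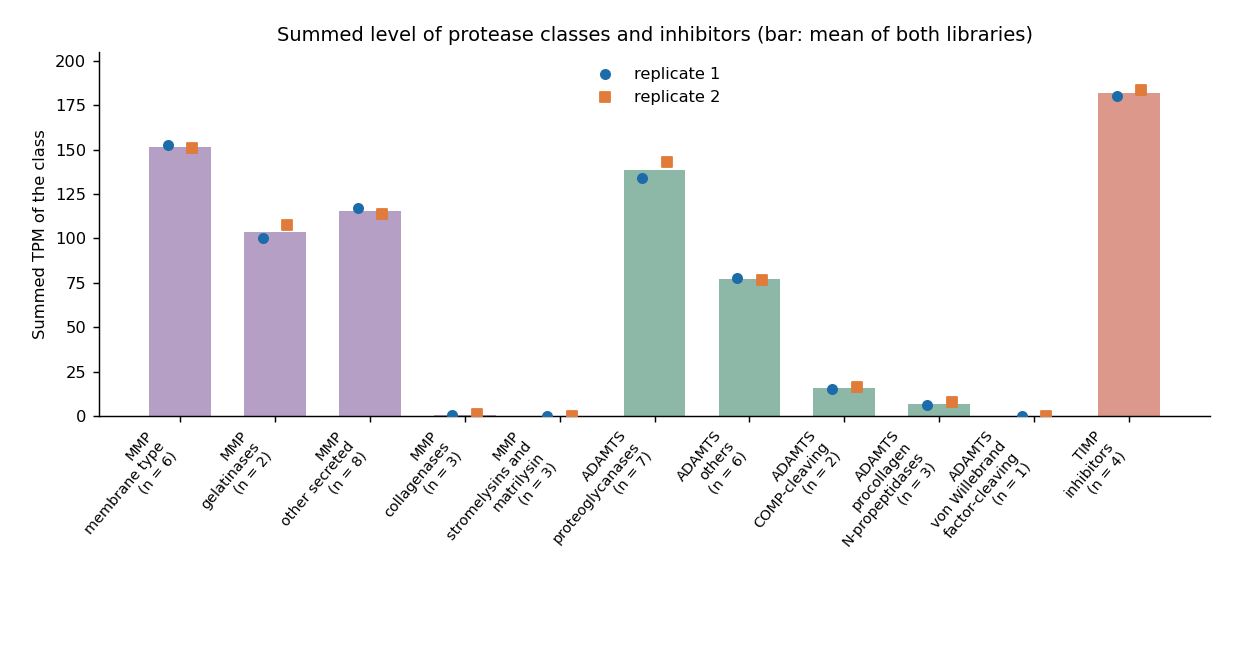
Summed TPM of 10 protease classes and of the TIMP inhibitors, with bars for the mean of both libraries, circles for replicate 1 and squares for replicate 2. The 4 TIMP genes sum to 180 and 184 TPM, above any single protease class, the highest of which is the membrane-type MMPs at 152 and 151 TPM.

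Per gene the Timp genes stood above both protease families. The median level was 0.42 and 0.66 TPM over Mmp genes, 3.46 and 2.90 TPM over Adamts genes and 43.3 and 43.6 TPM over Timp genes. On the scale of log2(mean TPM + 0.1), which understates differences of low genes, the mean was 0.30 over Mmp genes, 1.95 over Adamts genes and 4.01 over Timp genes. The difference was -3.71 for Mmp minus Timp and -2.06 for Adamts minus Timp, computed on the mean TPM of both libraries. Within single libraries it was -3.72 in both for Mmp, and -2.04 in replicate 1 and -2.08 in replicate 2 for Adamts. Over detected genes alone it was -1.55 for Mmp and -3.19 for Adamts, so that the order of the 2 protease families turned round.

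Among pairs known to act together, Mmp14 exceeded Timp2 1.77- and 1.74-fold in TPM, and Mmp2 exceeded Timp2 1.41- and 1.48-fold. Mmp14 was 1.25 and 1.18 times as high as Mmp2. Adamts1 and Timp3, a known inhibitor of it, were close, with ratios of 1.02 and 1.09 in TPM. Adamts1 was the higher within each library, but its value in replicate 1 (94.9 TPM) lay below that of Timp3 in replicate 2 (95.9 TPM). The order of these 2 genes is therefore not firm.

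The deposited transcript tables split each gene's TPM over its annotated transcripts. Of the 29 detected members 9 have 1 annotated transcript, Mmp14 and Mmp2 among them, and 16 were led by a transcript with over 90% of the gene in both libraries. In 3 members the leading transcript is not annotated as protein coding. Such counts were not made over all detected genes, so they cannot be read as particular to the members. Adamts10 was led by Adamts10-207, a transcript marked for nonsense-mediated decay, with 26.3% in replicate 1 and 29.0% in replicate 2, while the protein-coding Adamts10-201 took 20.9% and 19.4%. Adamts9 was led by Adamts9-203, which retains an intron, with 28.4% and 28.8%. Adamts20 was the only detected member whose leading transcript differed between the libraries. Its retained-intron form Adamts20-203 took 43.2% in replicate 1 and 59.2% in replicate 2, and its protein-coding form Adamts20-204 took 56.9% and 40.8%, from 175 and 191 counts for the gene.

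The share of TPM on transcripts that hold the sequences shown above was then summed for each gene, counting transcripts marked for decay where they hold the motif. All 3 detected Timp genes had over 90% on such transcripts in both libraries, as had 4 of 9 detected Mmp genes and 11 of 17 detected Adamts genes. For many of these genes the annotation fixed the share at 100%. Every annotated transcript holds the motif in the 9 members with 1 transcript and in Timp1, Adamts3, Adamts4 and Adamts14. The family counts thus depend on how many transcripts are annotated. The lowest shares were those of Adamts9, at 9.94% and 11.6%, and Adamts10, at 21.8% and 20.3%. Mmp23 had 49.6% and 52.9%, with the rest on transcripts that retain introns, and Mmp16 had 51.1% and 55.6%. Mmp11 had 70.6% in replicate 1 and 83.8% in replicate 2. Adamts1 had 95.9% and 96.1%. On such transcripts alone the Mmp genes summed to 316 and 330 TPM, the Adamts genes to 170.0 and 181 TPM and the Timp genes to 177 and 180 TPM, so that the protease sum exceeded the Timp sum 2.75- and 2.84-fold. The Adamts sum, above the Timp sum over all transcripts in both libraries, was then below it in replicate 1 and just above it in replicate 2. Splitting of reads among transcripts is an estimate, and transcripts with retained introns can also take reads from unspliced RNA, whose part in these shares was not tested.

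**Figure D4:**
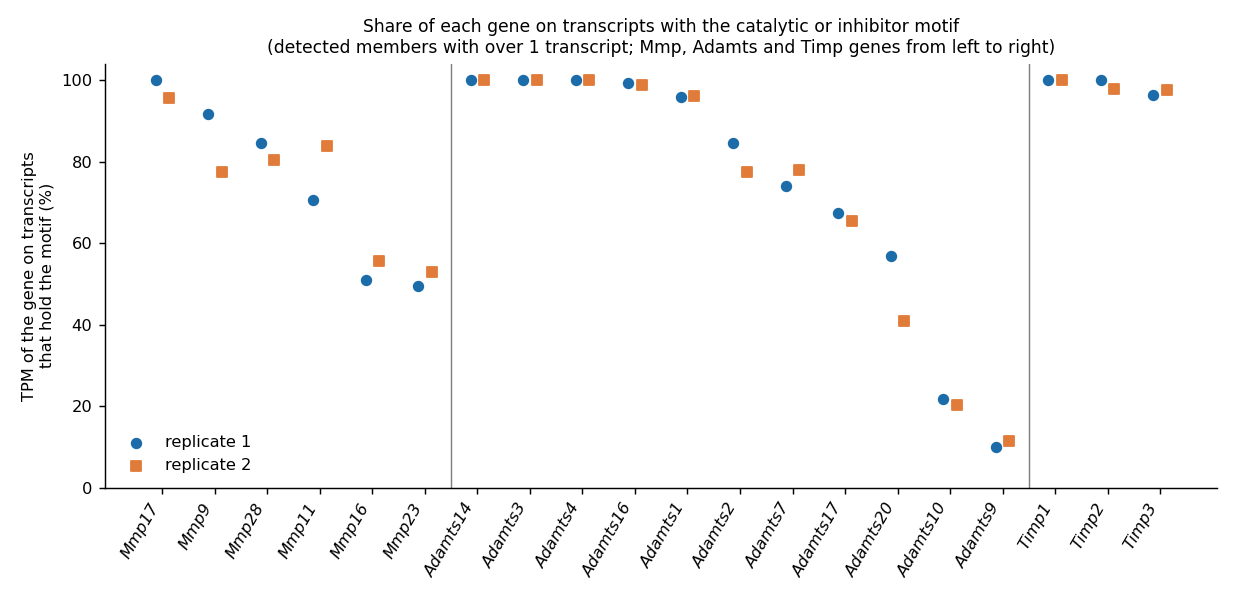
Percent of each gene's TPM on transcripts that hold the zinc or inhibitor motif, for detected members with more than 1 annotated transcript, with circles and squares for replicates 1 and 2 and vertical lines between the Mmp, Adamts and Timp genes. Adamts10 and Adamts9 lie under 25%, and all 3 Timp genes lie over 90%.

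Several members share exon sequence positions with a gene on the opposite strand, and their counts are uncertain because no source used here states the strandedness of the libraries. Timp1, Timp3 and Timp4 each lie inside a synapsin gene on the opposite strand, Syn1, Syn3 and Syn2. Timp3 shares 1733 nt of exon with Syn3, which had 7.62 TPM in replicate 1 and 6.14 TPM in replicate 2, Timp4 shares 90 nt with Syn2, at 1.24 and 1.20 TPM, and Timp1 shares none with Syn1. At its end Mmp11 shares 155 nt with Chchd10, at 135 and 160.0 TPM. Adamts9 shares 1381 nt with A730049H05Rik, at 2.57 and 1.98 TPM, Adamts7 shares 122 nt with Tbc1d2b, at 10.4 and 10.9 TPM, and Mmp28 shares 466 nt with 1700020L24Rik, at 0.05 and 0.17 TPM. Of the members under the limit, Mmp19 shares 789 nt with Tmem198b and Mmp24 shares 637 nt with BC029722, both over 15 TPM.

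The wider pathway was read from related gene lists. Of 10 genes of the activation cascade 9 were detected, led by the plasminogen activator Plat with 122 and 133 TPM, then the membrane serine proteases Hpn with 59.7 and 64.6 TPM and St14 with 38.5 and 38.9 TPM, and the urokinase gene Plau with 17.8 and 18.2 TPM. Plg, the plasminogen gene, was at 0.64 and 0.89 TPM, and Pcsk6 at 1.64 and 1.62 TPM. Other protease inhibitors were detected in 5 of 8 cases. Cst3, which blocks cysteine proteases, had 345 and 402 TPM, and the serine protease inhibitors Spint2, Serpine2 and Spint1 had 210 and 236 TPM, 128 and 148 TPM, and 40.1 and 41.5 TPM. Reck, a membrane-anchored inhibitor of MMPs, had 23.3 and 22.8 TPM, which lay above Timp1 in both libraries. The broad-range inhibitors A2m and Pzp were both under 1 TPM.

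All 8 ADAM sheddases were detected, led by Adam15 with 88.1 and 91.0 TPM, Adam10 with 73.8 and 74.5 TPM, Adam17 with 39 and 40.0 TPM and Adam9 with 27.3 and 30.1 TPM. Adam12 and Adam8 were the lowest, with 4.02 and 3.45 TPM and with 1.29 and 1.5 TPM. Of 5 astacin metalloproteases 3 were detected. These were the meprins Mep1a (51.9 and 59.9 TPM) and Mep1b (26.6 and 29.5 TPM), which are enzymes of the proximal tubule brush border, and Bmp1 (39.7 and 41.0 TPM), the procollagen C-proteinase. Tll1 and Tll2 were at 0.53 and 0.50 TPM and at 0.05 and 0.01 TPM. The ADAMTS-like genes, which lack the catalytic domain, were detected in 6 of 7 cases and led by Thsd4 with 22.7 and 20.5 TPM and Adamtsl1 with 16.5 and 14.2 TPM. Adamtsl5 and Adamtsl4 followed with 4.41 and 3.95 TPM and with 3.10 and 3.31 TPM, and Adamtsl2 and Adamtsl3 were lowest with 1.64 and 1.37 TPM and with 0.59 and 0.40 TPM.

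Of 15 known substrates 11 were detected. Col3a1 had 929 and 1049 TPM, Col1a1 had 712 and 790 TPM, Col4a1 had 252 and 282 TPM and Fn1 (fibronectin) had 145 and 142 TPM. The versican gene Vcan had 61.5 and 51.8 TPM, whereas the aggrecan gene Acan, which Adamts4 and Adamts5 are best known for cutting, had 0.14 and 0.15 TPM. Bcan and Ncan, for the brain proteoglycans brevican and neurocan, each had 0.25 and 0.08 TPM, and Comp, the substrate of Adamts7, had 0.13 and 0.62 TPM. The Bcan values rested on only 2 counts in replicate 1 and 6 in replicate 2, opposite in direction to its TPM, against 41 and 14 counts for Ncan. The fibrillin genes Fbn2 and Fbn1 had 28.4 and 26.7 TPM and 12.5 and 13.0 TPM. Of 9 genes for cofactors, clearance and glycosylation 8 were detected, led by Bsg (basigin, an inducer of MMPs) with 781 and 880 TPM, Pcolce, the enhancer of procollagen C-proteinase, with 127 and 124 TPM, Pofut2, which puts fucose on ADAMTS thrombospondin repeats, with 118 and 124 TPM, and the endocytic receptor Lrp1 with 57.7 and 59.9 TPM. Spock3 and Spock1 were lowest with 2.69 and 2.97 TPM and with 0.52 and 0.49 TPM.

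The library of replicate 1 held 35255968 expected counts and that of replicate 2 held 38706236. Spike-ins took 2.82% of them in replicate 1 and 2.08% in replicate 2. Detected members had from 56 counts (Mmp28) to 11973 counts (Adamts1) in a library, so counting error weighs most on the lowest of them. Kidney markers were detected in 12 of 12 cases and summed to 1215 and 1250 TPM. The pools differed in some markers of other tissues: 4 smooth muscle markers summed to 377 TPM in replicate 1 and 726 TPM in replicate 2, 5 adrenal cortex markers to 82.0 and 121 TPM, and 4 nerve markers to 38.8 and 24.1 TPM. Endothelial markers (313 and 314 TPM) and cartilage markers (42.2 and 40.8 TPM) were close, though only 2 of 4 cartilage markers were detected. Of 4 skeletal muscle markers Acta1 alone differed past 2-fold (48.3 and 139 TPM).

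Between the pools the members differed little, and about as much as all genes compared. At a mean of at least 1 CPM (counts scaled to library size adjusted by TMM, as given below) 32 members could be compared. Of these, 0 were past 2-fold between replicates 1 and 2, against 2.32% of 15362 genes. No test was run, since each pool is 1 library. The log2 ratio of replicate 1 over replicate 2 ran from -0.39 for Adamts8 to 0.51 for Adamts6. Adamts6 had 190 counts in replicate 1 and 144 in replicate 2, Adamts8 had 39 and 56, and Adamts18, with the next largest size of ratio at -0.35, had 146 and 203. These are among the lower members in counts. The median size of the log2 ratio was 0.12 over members and 0.11 over all genes compared. Mmp11 was higher in replicate 1 by TPM but had a log2 ratio of -0.05 by counts, with its main transcript Mmp11-201 at 64.3% of the gene in replicate 1 and 76.0% in replicate 2.

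**Figure D5:**
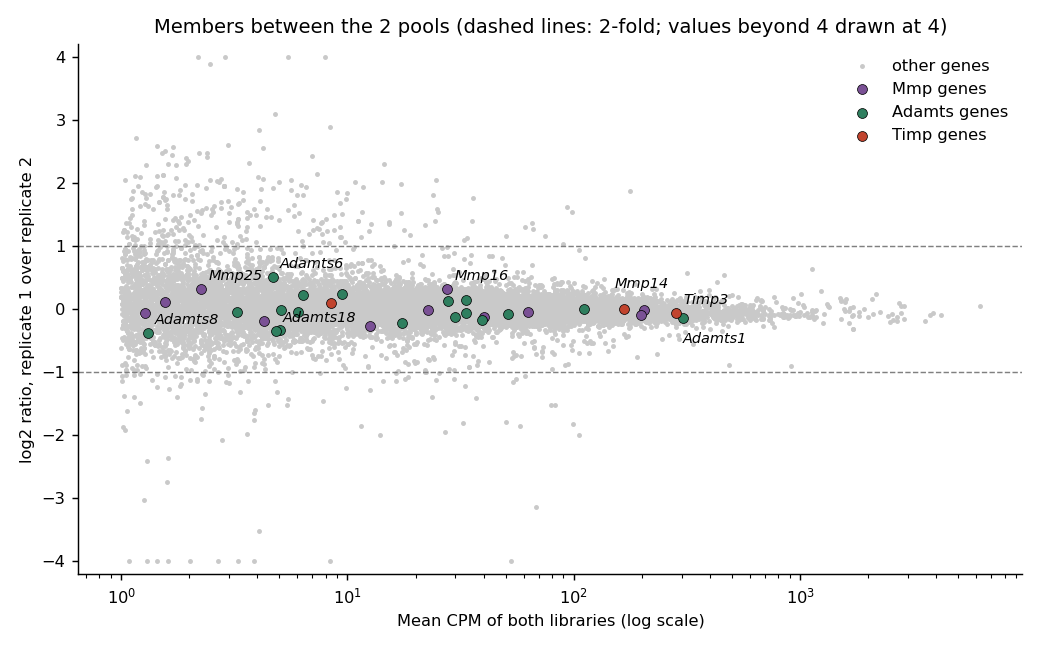
Log2 ratio of replicate 1 over replicate 2 against mean CPM on a log axis, with 32 members in colour over the other genes in grey. Every coloured point lies between the dashed lines at 2-fold, from -0.39 for Adamts8 to 0.51 for Adamts6.

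Below that filter 1 member was past 2-fold. Mmp8 had 15 counts in replicate 1 and 43 in replicate 2, a log2 ratio of -1.30 at a mean of 0.79 CPM. Of 9 neutrophil markers 6 were detected, and the list summed to 36.7 TPM in replicate 1 and 55.1 TPM in replicate 2. Its highest gene S100a8 had 14.7 and 24.8 TPM and S100a9 had 7.85 and 12.6 TPM, while none was at 0. Prtn3, the next highest, was level at 6.71 and 6.68 TPM, and Ly6g had 10 and 11 counts. Of the 6 neutrophil markers past the CPM filter, 0 were past 2-fold. The part of these cells in the Mmp8 value was not tested. Of the related genes, Pzp passed the filter and was past 2-fold with 47 counts in replicate 1 and 112 in replicate 2, a log2 ratio of -1.10. Below the filter Comp had 7 and 36 counts (log2 ratio -1.98), Ncan had 41 and 14 (1.53) and Tll2 had 4 and 1 (1.06), so that the directions were mixed.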

How the data were processed

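For each library the authors deposited one table of genes and one of transcripts. Per the file headers they hold expected counts (estimated counts, not always whole, since shared reads are divided), TPM scaled to effective length and to a sum of 1000000 per library over all entries, FPKM, posterior mean TPM, bounds of TPM (deposited as a signal that is never negative) and the percent of each transcript within its gene. The deposited bounds surround the posterior mean, and the deposited TPM of 2 detected members in replicate 1 and 3 in replicate 2 lay just outside them. Values refer to mm10 and annotation M4, per the deposited text notes, with aligner, quantifier and strandedness not given in the sources used here. Names, gene types, exons and coding sequences came from GENCODE M21 (GRCm38) by stable identifier. A name was found for 42462 of 43346 mouse genes, and all 127 member transcripts were matched, 61 in the same version, so gene models can differ. Protein sequences were not used here; motifs were searched in translated coding sequences.

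The members, gene lists and comparisons were chosen with earlier results of these data known. For the pools, expected counts were rounded and scaled by TMM in edgeR 4.0.16 (R 4.3.3) with a prior count of 2 at a mean of 1 CPM. Only the code for the ratio between the pools was tested on simulated data. The libraries differed by more than sampling noise (chi-square per gene 15.7) and were kept as 2 samples. Alternatives were other detection limits, units, pseudocounts, scalings (DESeq2 1.42.0 size factors, library size, spike-ins) and filters, and leaving out each library. All members were named, and of each related list up to 4 of the highest and 2 of the lowest genes by mean TPM. Vcan, Comp, Fbn1, Fbn2, S100a8, S100a9, Prtn3, Ly6g, Acta1 and Pzp were added after their values were seen. Some genes that these rules take are not reported here. Tables used Python 3.11.15, numpy 2.4.6 and pandas 2.3.3, and figures matplotlib 3.10.9.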

Additional observations from a re-analysis of the deposited data

How the results depend on the processing

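Of 35 alternatives 17 kept their value within the limits set, and none changed the sign of either log2 difference from Timp. Detection fell to 17 members at 5 TPM, against 29 at 1 TPM, and was 31 at 0.5 TPM, 22 at 1 FPKM, 29 by posterior mean TPM, and 29 and 30 in single libraries. The Timp share of member TPM was 22.8% by posterior mean, 23.01% over detected members and 26.5% by expected counts, which are not scaled to length, against 22.97%, and 22.95% to 23.0% in single libraries. The mean log2 difference of Mmp minus Timp was -2.51 with a pseudocount of 1, -4.62 with 0.01, -1.55 over detected members, -5.74 by medians, -3.43 by posterior mean and -3.72 to -3.72 in single libraries. That of Adamts minus Timp was -1.86, -2.18, -3.19, -3.39 and -1.98 under the same 5 choices, and -2.08 to -2.04 in single libraries. The difference turned larger for Adamts than for Mmp over detected members, where the 13 undetected Mmp genes, 2 Adamts genes and Timp4 are left out.

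The number of members past 2-fold between the pools was 0 with TMM, DESeq2 size factors, library size, spike-in totals, a filter at 5 TPM or a prior count of 0.5, and 1 (Mmp8) with no filter. The direction of small ratios depended on scaling: 9 members were higher and 23 lower in replicate 1 by TMM and by DESeq2 size factors, 14 and 18 by library size, and 1 and 31 by spike-ins, where the median of all genes itself shifted to -0.43. Members whose leading transcript differed numbered 0 at 5 TPM, against 1 at 1 TPM. Those led by a transcript that is not protein coding numbered 2 at 5 TPM, against 3, and 2 to 3 in single libraries. No test was run, so no test result could be gained or lost, while the detection and fold calls moved as given above. No paired analysis was possible because the samples form 1 group. At 3 counts the floor depends on the length of the gene, and Mmp7, at 0.04 and 0.08 TPM, lay under its own floors of 0.135 and 0.124 TPM.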
